A study of Homo sapiens with 5 samples.

Results

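The mitochondrial genome of human cells carries 37 genes, and all 37 were found among the 60623 gene rows of an RNA-seq table of HCT116 cells, an established human colorectal carcinoma line. They were chosen by gene symbol, as every row whose reference symbol begins with MT-, and comprise 13 mRNAs, 2 rRNAs and 22 tRNAs. The table's own symbols lack that prefix (ND6, COX2, TRNL1), so the symbols were matched through the Ensembl gene IDs. The libraries were 3 controls (replicates 1, 2 and 3), of which the labels say nothing more, and 2 of cells treated with LT4 (replicates 1 and 3). The series title names the compound 4-acetylantrocamol LT3 while sample titles and design text say LT4, and the labels give neither dose nor time. The headers of the table give each LT4 library its own comparison with the controls, so it is not stated that these libraries received the same treatment. The labels do not tell separate cultures from repeat preparations, and every p-value here therefore rests on a spread between libraries that may be technical only. Libraries were made from poly(A)-selected RNA, so the values below are levels in that fraction.

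The mitochondrial genome is a small circle transcribed from both strands into long precursors. Most genes are read as part of the heavy-strand transcript, while MT-ND6 and 8 tRNAs are read as part of the light-strand transcript. The tRNAs lie between the other genes, and cutting them out of the precursor releases the mRNAs and rRNAs. Most of the mRNAs then receive A tails. The mRNAs encode core subunits of respiratory complexes I, III and IV and of the ATP synthase, complex V, and the rRNAs form the mitochondrial ribosome that translates them.

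The ends of the mRNAs show this layout and bear on how reads can be assigned. In 6 of the 13 mRNAs the annotated length is not a multiple of 3, because the stop codon is completed by the A tail. Below are the last 30 bases of 3 such mRNAs, then of 2 that end in a whole codon, from the GENCODE 29 transcripts (GRCh38). Capitals mark the partial or whole last codon, and MT-ND1, MT-ND2, MT-ND6 and MT-CO2 are the mRNAs to which the results return most.
MT-ND1, plus strand, chrM:4233-4262: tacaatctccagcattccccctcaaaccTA
MT-ND2, plus strand, chrM:5482-5511: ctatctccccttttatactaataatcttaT
MT-CO3, plus strand, chrM:9961-9990: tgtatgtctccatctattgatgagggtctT
MT-CO2, plus strand, chrM:8240-8269: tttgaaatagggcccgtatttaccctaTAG
MT-ND6, minus strand, chrM:14149-14178: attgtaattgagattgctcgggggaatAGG
The start of MT-ND6 differs in base composition from that of a heavy-strand mRNA, shown here by the first 60 bases of each.
MT-ND6, minus strand, chrM:14614-14673: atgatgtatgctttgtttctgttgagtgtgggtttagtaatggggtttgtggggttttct
MT-ND2, plus strand, chrM:4470-4529: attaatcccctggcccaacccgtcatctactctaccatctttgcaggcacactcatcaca
Over its 525 bases MT-ND6 holds 35.6% G and 7.05% C, while the other 12 mRNAs hold 6.28% to 16.2% G and 29.5% to 36.0% C. Some neighbouring mRNAs overlap each other, and reads from the shared bases, in capitals, cannot be told apart. The end of MT-ATP8 shares 46 bases with the start of MT-ATP6, and the end of MT-ND4L shares 7 bases with the start of MT-ND4.
MT-ATP8, plus strand, chrM:8517-8572: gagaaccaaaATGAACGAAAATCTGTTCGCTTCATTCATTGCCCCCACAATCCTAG
MT-ND4L, plus strand, chrM:10737-10766: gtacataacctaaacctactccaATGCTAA

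Total counts were 11653484 to 12296916 in the controls, 9840467 in LT4 replicate 1 and 2281912 in LT4 replicate 3, the shallowest library. Cells of all libraries carried the epithelial markers KRT8, KRT18, EPCAM and CDH1, while VIL1 had 1 to 4 counts. The 5 epithelial markers summed to 10344 to 12029 CPM (counts for each 1000000 of the library) in controls, 10559 in LT4 replicate 1 and 9789 in LT4 replicate 3. The leukocyte markers PTPRC and CD3E and the fibroblast marker DCN had 0 counts throughout. The 3 leukocyte markers summed to at most 0.0988 CPM, and summed CPM was 9.56 to 16.5 for the 3 fibroblast markers and 5.26 to 10.5 for the 3 hepatocyte markers. CPM here is scaled with edgeR's TMM factors.

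Of the 37 members, 23 passed edgeR's expression filter and were tested, namely all 13 mRNAs, both rRNAs and 8 tRNAs. The 14 others were tRNAs with too few counts. With both LT4 libraries against the 3 controls, 0 of the 23 passed an adjusted p of 0.05 in edgeR's quasi-likelihood test, beside 0.137% of the 13833 genes tested (0.123% higher and 0.0145% lower). An unadjusted p under 0.05 was reached by 4, all lower with LT4 (MT-ND6, MT-ND1, MT-ND2 and MT-CYB), beside 13.9% of all genes tested, 5.28% being lower. DESeq2 called 3 of the 18 members to which it gave an adjusted p (MT-ND1, MT-ND2 and MT-ND6, all lower), beside 0.73% of all genes. Without a count filter edgeR called the same 3 of 33 members, beside 1.27% of all genes. With limma voom 0 of 23 were called, beside 0.202% of all genes. The median log2 fold change of the 23 was -0.16, beside -0.0032 over all genes tested. Among the 23 tested, both LT4 libraries lay below every control for 6 members (MT-ND6, MT-ND1, MT-ND2, MT-CO3, MT-CYB and MT-TT), beside 16.5% of all genes, and above every control for MT-CO2 alone, beside 17.3%.

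Each LT4 library was also set against the controls by itself, in a fit that took its spread from the controls and assumed that the single library varies like them. LT4 replicate 1 then gave 6 members past an adjusted p of 0.05, 2 higher and 4 lower, beside 3.36% of all genes (2.25% higher and 1.11% lower). LT4 replicate 3 gave 4, with 2 higher and 2 lower, beside 4.07% of all genes (2.47% higher and 1.6% lower). MT-ND1 and MT-ND2 were lower in each library by this test, and the rRNAs went opposite ways. Over 8 fits (as reported, with 3 other scalings, with a stricter count minimum and without each control), the rRNAs, MT-ND1 and MT-ND2 passed in all for LT4 replicate 3. For LT4 replicate 1 the rRNAs and MT-ND4L passed in all 8, MT-ND1 in 6, MT-ND2 in 5 and MT-ATP8 in 4. Without control 1 the calls of MT-ND1, MT-ND2 and MT-ATP8 were lost. Without control 2 that of MT-ATP8 was lost, and without control 3 those of MT-ND2 and MT-ATP8. With library totals as the only scaling those of MT-ND1 and MT-ND2 were lost, and with the stricter count minimum that of MT-ATP8. Leaving out control 3 added MT-ND6, MT-CYB and MT-ND5 for LT4 replicate 3, and the share of all genes called in that fit was not taken. These comparisons share their controls, so their likeness is not independent support.

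**Figure D1:**
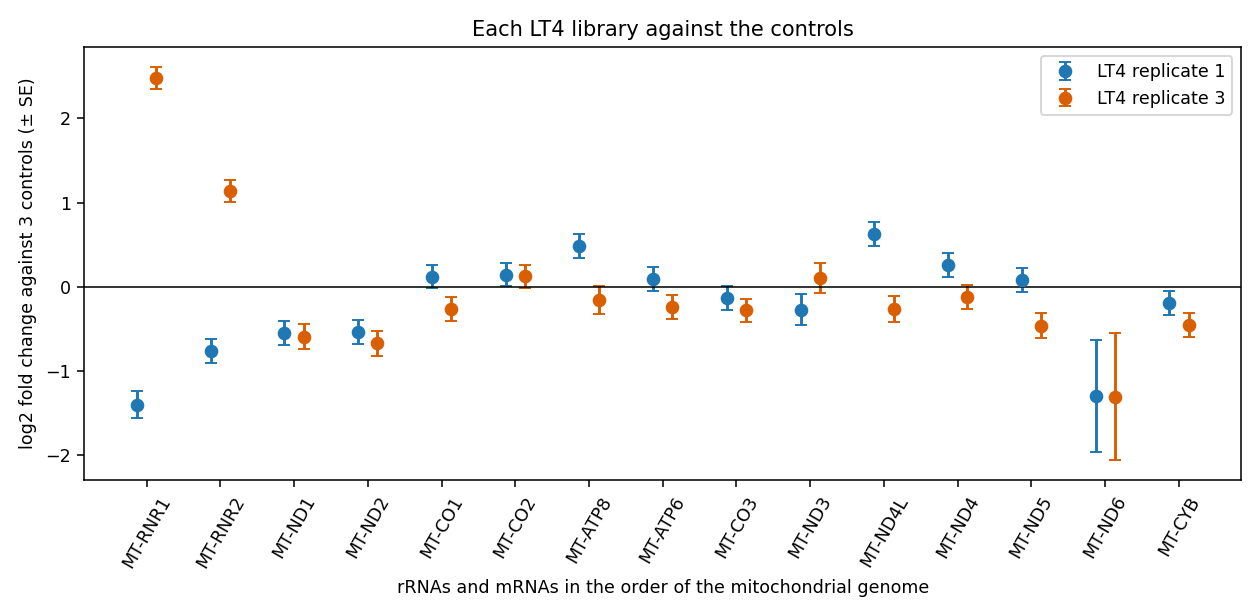
Log2 fold change of each LT4 library against the 3 controls (vertical axis, points with standard errors from edgeR) for the 15 mitochondrial rRNAs and mRNAs in genome order (horizontal axis). MT-RNR1 lies at -1.40 in LT4 replicate 1 and 2.48 in LT4 replicate 3, while MT-ND1, MT-ND2 and MT-ND6 lie below 0 in both.

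Among the mRNAs and rRNAs, the rRNAs differed most between the LT4 libraries. MT-RNR1 (ENSG00000211459, chrM:648-1601, plus strand) is the 12S rRNA of the small ribosomal subunit. Its level was 4662, 5218 and 5934 CPM in controls 1, 2 and 3. It was 2001 CPM in LT4 replicate 1 but 29390 CPM in LT4 replicate 3. The LT4 libraries thus flanked the controls, 1 below all of them and the other above. LT4 replicate 1 against controls gave a log2 fold change of -1.40 (SE 0.16, edgeR adjusted p = 2.97e-07), and LT4 replicate 3 gave 2.48 (SE 0.13, edgeR adjusted p = 1.06e-17). With both libraries together the value was 1.57 (SE 1.24, edgeR adjusted p = 0.656). By number of counts MT-RNR1 ranked 14 to 20 among all genes of a control library, 50 in LT4 replicate 1 and 1 in LT4 replicate 3.

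MT-RNR2 (ENSG00000210082, chrM:1671-3229, plus strand), the 16S rRNA of the large subunit, was likewise lowest in LT4 replicate 1 and highest in LT4 replicate 3, with smaller steps. Its level was 12999.8, 12162 and 13468.5 CPM in controls, with 7609 CPM in LT4 replicate 1, against 28403 CPM in LT4 replicate 3. The log2 fold change was -0.76 (SE 0.15, edgeR adjusted p = 0.00148) in LT4 replicate 1 and 1.14 (SE 0.13, edgeR adjusted p = 9.98e-08) in LT4 replicate 3. The counts of MT-RNR1 were 0.359, 0.429 and 0.441 of those of MT-RNR2 in controls, 0.263 in LT4 replicate 1 and 1.03 in LT4 replicate 3, so the rRNAs did not keep a fixed ratio. In bulk RNA, a change in RNA per cell and a change in the share of cells that hold it cannot be told apart. How much of each rRNA passed the poly(A) selection in each library was not tested. Per length, in the authors' TPM, the same ratio was 0.586 to 0.720 in controls, 0.430 and 1.69.

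The difference between the LT4 libraries was tested in the same fit. It compares these 2 libraries, not conditions, with the spread taken from the controls. LT4 replicate 3 exceeded LT4 replicate 1 by a log2 value of 3.88 for MT-RNR1 (SE 0.20, edgeR adjusted p = 2.75e-18) and of 1.90 for MT-RNR2 (SE 0.18, edgeR adjusted p = 5.41e-10). A total of 3 members passed this test, 2 higher and MT-ND4L lower, beside 2.44% of all genes (1.03% higher and 1.41% lower). LT4 replicate 3 was also the library with the fewest counts, and the part of depth in this difference was not tested.

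All 37 members together took 6.57%, 5.83% and 6.64% of the counts of the controls, 5.73% in LT4 replicate 1 and 9.92% in LT4 replicate 3. The controls and LT4 overlapped (6.35% ± 0.449, SD, n = 3, against 7.82% ± 2.96, SD, n = 2; exact permutation test, two-sided, p = 0.5). With 5 libraries there are 10 splits, and p cannot go below 0.1. Without the rRNA rows the share was 4.89%, 4.22% and 4.80% in controls, 4.78% in LT4 replicate 1 and 4.34% in LT4 replicate 3 (exact permutation p = 0.8), so the high share of LT4 replicate 3 lay in its rRNA rows. The rRNAs made 26.9% to 29.1% of the mitochondrial counts in controls, 17.3% in LT4 replicate 1 and 58.8% in LT4 replicate 3 (exact permutation p = 0.7). Over 8 shares of the mitochondrial counts, by RNA class, complex and strand, the adjusted p was 0.8 for each.

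**Figure D2:**
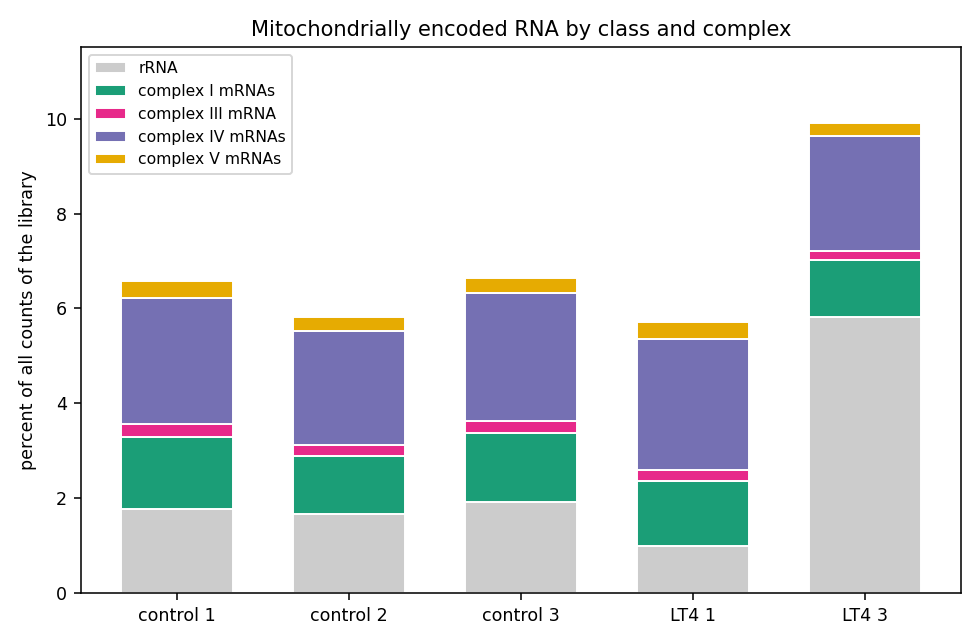
Share of all counts of a library (vertical axis, percent) taken by mitochondrial rRNAs and by the mRNAs of complexes I, III, IV and V, stacked for each of the 5 libraries; tRNAs are too few to show. The rRNA block differs most, from 0.989% in LT4 replicate 1 to 5.83% in LT4 replicate 3, while the mRNAs together take 4.09% to 4.80% in every library.

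MT-ND6 is the single mRNA of the light-strand transcript and encodes a membrane subunit of complex I. It occupies chrM:14149-14673 on the minus strand (ENSG00000198695), with 1578, 1083 and 2309 counts in the controls and 579 and 131 counts in LT4 replicates 1 and 3. Its level was 128, 93.8 and 199 CPM in controls, and 57.2 and 56.9 CPM in LT4 replicates 1 and 3. Both LT4 libraries were below every control, and they differed from each other by less than any controls did. The log2 fold change of -1.30 was the most negative of the 23 tested members (SE 0.28, edgeR adjusted p = 0.109), and DESeq2 gave -1.31 with an adjusted p of 0.000108. With a single LT4 library the values were -1.29 (SE 0.66, edgeR adjusted p = 0.487) for replicate 1 and -1.30 (SE 0.75, edgeR adjusted p = 0.513) for replicate 3. Neither passed in a fit that takes its spread from controls spanning 93.8 to 199 CPM. The outcome differed without control 2 and without control 3, where the share of all genes called was not taken.

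Set against the other strand, MT-ND6 had 2.68, 2.19 and 4.23 counts per 1000 counts of the 12 heavy-strand mRNAs in controls, 1.24 in LT4 replicate 1 and 1.41 in LT4 replicate 3. This ratio does not depend on the rRNAs or the library total, and the groups did not overlap in it. In CPM, both LT4 libraries lay below every control for 16.5% of all genes. As a share of mitochondrial mRNA counts, MT-ND6 took 0.218% to 0.421% in controls, and 0.124% and 0.141% with LT4 (exact permutation p = 0.2). MT-ND6 and the heavy-strand mRNAs may pass the poly(A) selection to unlike degrees, which was not tested. The strand setting of the authors' counting is not given in the sources used here. Reads of MT-ND6 and of the heavy-strand precursor that runs opposite to it may not be told apart. In the authors' deposited table, which sets each single LT4 library against the controls, MT-ND6 had log2 fold changes of -1.28 and -1.32 in LT4 replicates 1 and 3.

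MT-ND1 and MT-ND2, membrane subunits of complex I, lie next to each other just after the rRNAs. MT-ND1 (ENSG00000198888, chrM:3307-4262) was at 1901, 1672 and 1827 CPM in controls, and at 1232 and 1196 CPM in LT4 replicates 1 and 3. MT-ND2 (ENSG00000198763, chrM:4470-5511) was at 2982, 2480 and 2859 CPM in controls, 1913 CPM and 1745 CPM. In each of these mRNAs both LT4 libraries were below every control. Both LT4 libraries together gave a log2 fold change of -0.57 (SE 0.12) for MT-ND1 and -0.60 (SE 0.13) for MT-ND2, each with an edgeR adjusted p of 0.0962. Against the controls alone, LT4 replicate 1 was lower by this test in MT-ND1 (-0.55, edgeR adjusted p = 0.0236) and in MT-ND2 (-0.54, edgeR adjusted p = 0.0303). LT4 replicate 3 was lower likewise, at -0.59 (edgeR adjusted p = 0.0131) and -0.67 (edgeR adjusted p = 0.00588). By DESeq2 the values with both libraries were -0.58 (adjusted p = 0.0028) and -0.62 (adjusted p = 0.00368).

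MT-ND1 and MT-ND2 together made 10.2%, 9.66% and 9.90% of the mitochondrial mRNA counts in controls, 6.83% in LT4 replicate 1 and 7.26% in LT4 replicate 3. The mean difference was -2.87 percentage points (exact permutation test, two-sided, p = 0.1, the smallest possible). This share leaves out the rRNAs and the rest of the library, and these mRNAs were joined in it after their values were seen.

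**Figure D3:**
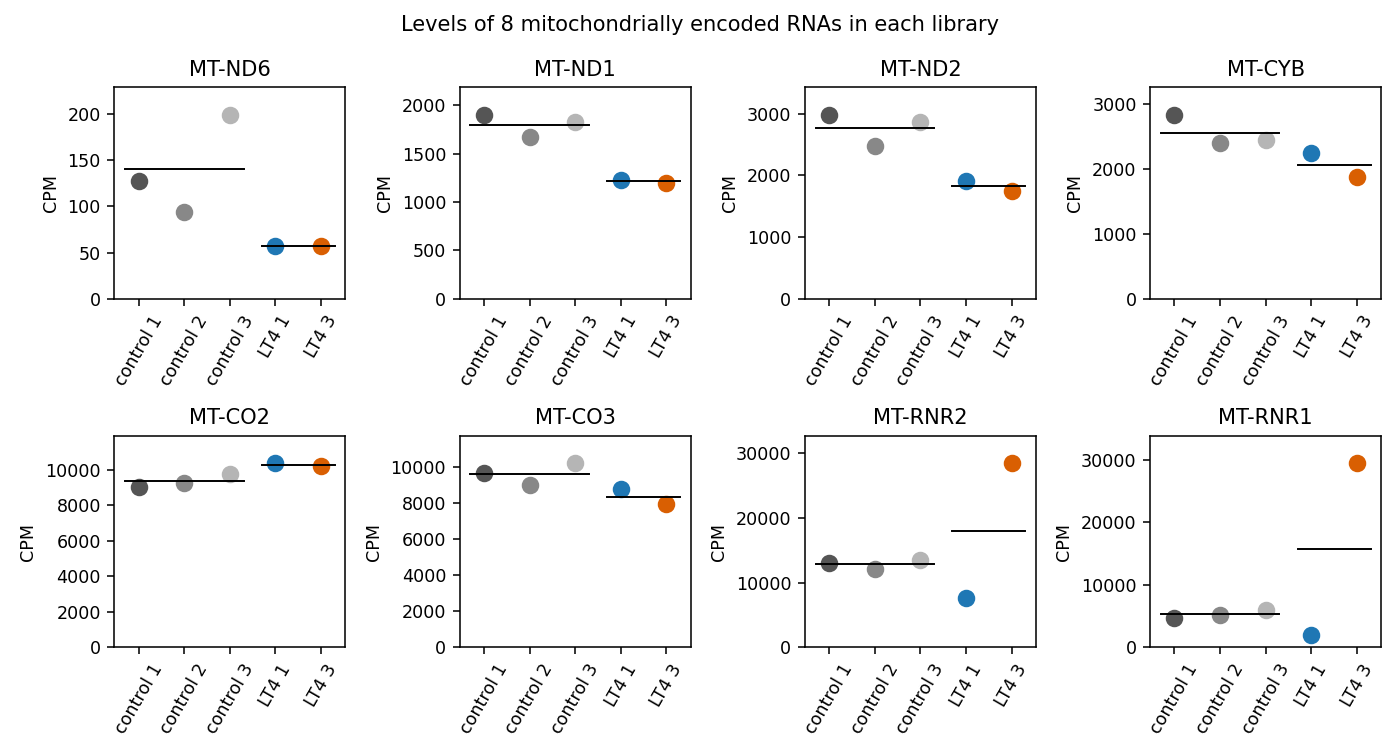
Levels of 8 mitochondrial RNAs (vertical axis, TMM-scaled CPM, linear from 0) in each library (horizontal axis), with lines at the group means. For MT-ND6, MT-ND1, MT-ND2, MT-CYB and MT-CO3 both LT4 points lie below all control points, for MT-CO2 above them, and for the rRNAs on opposite sides.

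The other 4 mRNAs of complex I showed no such shared direction. MT-ND3, a small membrane subunit, was at 2685, 2389 and 3580 CPM in controls, and at 2392 and 3111 CPM in LT4 replicates 1 and 3, within the range of the controls. MT-ND4, a proton-pumping subunit, was at 5215, 4217 and 4424 CPM, then 5526 and 4240 CPM. MT-ND5, another proton-pumping subunit, was at 1677, 1336 and 1306 CPM, then 1522 and 1046 CPM, the last below every control (log2 fold change of LT4 replicate 3 -0.46, SE 0.15, edgeR adjusted p = 0.0721). MT-ND4L, a small membrane subunit read from 1 transcript with MT-ND4, was at 511, 408 and 389 CPM in controls, and at 675 and 364 CPM in LT4 replicates 1 and 3. It lay above all controls in the first LT4 library (0.63, SE 0.14, edgeR adjusted p = 0.00983) and below them in the other (-0.26, SE 0.16, edgeR adjusted p = 0.356). The difference between the LT4 libraries was -0.89 (SE 0.19, edgeR adjusted p = 0.00657). Of the 7 complex I mRNAs, 0 passed with both libraries together by edgeR, and 3 had an unadjusted p under 0.05, all lower, beside 13.9% of all genes. With LT4 replicate 1, 3 passed (1 higher, 2 lower), beside 3.36% of all genes, and with LT4 replicate 3, 2 passed (both lower), beside 4.07%.

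MT-CYB encodes cytochrome b, the only mitochondrially encoded subunit of complex III. Its level was 2833, 2392 and 2453 CPM in controls, and 2243 and 1875 CPM in LT4 replicates 1 and 3, so both LT4 libraries were below the lowest control. The log2 fold change was -0.31 (SE 0.13, edgeR adjusted p = 0.324), with -0.19 (edgeR adjusted p = 0.501) and -0.45 (edgeR adjusted p = 0.0645) in LT4 replicates 1 and 3. As a share of mitochondrial mRNA counts, MT-CYB took 5.18% to 5.92% in controls, and 4.87% and 4.63% with LT4 (exact permutation p = 0.2).

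The 3 mRNAs of complex IV, cytochrome c oxidase, encode its catalytic core and made the largest share of the mitochondrial mRNA counts, 55.1% to 57.9% in controls, 58.6% in LT4 replicate 1 and 59.5% in LT4 replicate 3 (exact permutation p = 0.2). MT-CO2 was at 9049, 9240 and 9765 CPM in controls, 10354 CPM and 10199 CPM with LT4, above every control in both (log2 fold change 0.14, SE 0.11, edgeR adjusted p = 0.629). Relative to the mitochondrial total its value was -0.0087, so its direction depends on the scaling. MT-CO3 was at 9673, 9025 and 10216 CPM in controls, 8809 CPM and 7938 CPM with LT4, below every control (-0.20, SE 0.12, edgeR adjusted p = 0.481). MT-CO1 was at 7681, 6634 and 7183 CPM in controls, above them at 7797 CPM in LT4 replicate 1 and below them at 5965 CPM in LT4 replicate 3. None of the 3 passed the test with both LT4 libraries or with either.

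MT-ATP6 and MT-ATP8 encode subunits of the ATP synthase and are read from 1 transcript. MT-ATP6 was at 3420, 2980 and 3035 CPM in controls, and at 3356 and 2664 CPM in LT4 replicates 1 and 3. MT-ATP8 was at 123, 111 and 107 CPM in controls, 159 CPM and 102 CPM with LT4. The latter passed with LT4 replicate 1 (log2 fold change 0.49, SE 0.14, edgeR adjusted p = 0.0482) and had -0.16 (SE 0.17, edgeR adjusted p = 0.643) with LT4 replicate 3. The difference between the LT4 libraries was -0.65 (SE 0.20, edgeR adjusted p = 0.0625). In TPM, MT-ATP8 was 0.118, 0.122 and 0.116 of MT-ATP6 in controls, 0.156 in LT4 replicate 1 and 0.126 in LT4 replicate 3. The like ratio of MT-ND4L to MT-ND4 was 0.455, 0.449 and 0.408, then 0.566 and 0.398. In both pairs the highest ratio was that of LT4 replicate 1, and because the pairs share bases these ratios depend on how overlapping reads were assigned.

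Per length, the levels of the 13 mRNAs spanned 51.3-fold in the controls. In TPM MT-CO2 was highest at 35892 ± 780 (SD, n = 3), followed by MT-CO3 at 32289 ± 2055, MT-ND3 at 21859 ± 4371, MT-CO1 at 12221 ± 1190 and MT-ATP6 at 12149 ± 1283. MT-ND4, at 8823 ± 1262, MT-ND2, at 6999 ± 793, MT-CYB, at 5903 ± 726, MT-ND1, at 4951 ± 427, and MT-ND4L, at 3869 ± 699.6, followed. MT-ND5 at 2093 ± 364, MT-ATP8 at 1444 ± 147 and MT-ND6 at 700.1 ± 257 were the lowest. Of the 12 neighbouring pairs in this order, 3 overlapped over the control libraries (MT-CO1 with MT-ATP6, MT-ND2 with MT-CYB, and MT-ND1 with MT-ND4L). The highest 3 and the lowest 3 kept their places in all 5 libraries. In LT4 replicate 1 MT-ND4L ranked 7, against 10 in each other library.

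**Figure D4:**
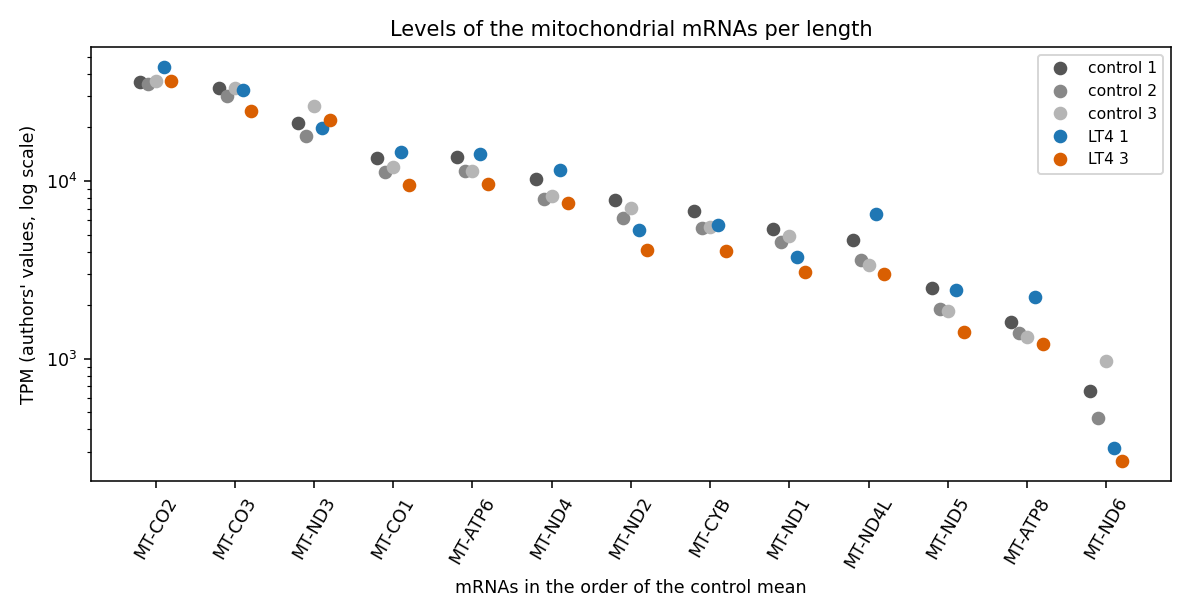
Level per length of the 13 mitochondrial mRNAs (vertical axis, authors' TPM, log scale) in each of the 5 libraries (points), in the order of the control mean (horizontal axis). The order runs from MT-CO2 to MT-ND6 and is the same at both ends in every library, with MT-ND4L standing out in LT4 replicate 1.

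The 22 tRNAs, which as mature molecules are short and carry no A tail, gave few counts. No tRNA had more than 71 counts in a library, 18 had at least 1 count and 4 (MT-TG, MT-TH, MT-TS2 and MT-TL2) had 0 in every library. The tRNA for glutamine, MT-TQ, of the light strand, had 28, 14 and 71 counts in controls, 16 in LT4 replicate 1 and 6 in LT4 replicate 3. MT-TP, for proline, also of the light strand, had 25, 19 and 51 counts, then 9 and 6. On the heavy strand MT-TT, for threonine, had 43, 32 and 37 counts, then 17 and 6, and MT-TI, for isoleucine, had 27, 37 and 44 counts, then 13 and 12. Scaled for depth, MT-TT alone of the 8 tested tRNAs was below every control in both LT4 libraries (log2 fold change -0.71, SE 0.38, edgeR adjusted p = 0.434). The log2 fold change was -1.01 for MT-TP (SE 0.60, edgeR adjusted p = 0.478; -1.58 without LT4 replicate 3, -0.041 without LT4 replicate 1 and -0.42 without control 3), -0.78 for MT-TQ (SE 0.68, edgeR adjusted p = 0.646) and -0.35 for MT-TI (SE 0.52, edgeR adjusted p = 0.811). None of the 8 passed with both LT4 libraries or with either by edgeR, with 0 at an unadjusted p under 0.05 for both, 2 for LT4 replicate 1 (beside 18.4% of all genes) and 0 for LT4 replicate 3 (beside 19.6%). For MT-TP and MT-TQ in LT4 replicate 1 the outcome differed without control 2, where the share of all genes called was not taken.

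By strand, the 8 light-strand tRNAs summed to 8.19, 5.37 and 16.5 CPM in controls, and to 5.33 and 7.82 CPM in LT4 replicates 1 and 3. The 14 heavy-strand tRNAs summed to 9.49, 9.44 and 10.9 CPM, then 4.64 and 11.7 CPM. Control 3, which had the highest MT-ND6, also had the highest CPM among controls for 5 of the 8 light-strand tRNAs and for 4 of the 10 heavy-strand tRNAs with a count, among the latter MT-TK with 1 count each in controls 1 and 3. Unlike MT-ND6, the light-strand tRNA sum of LT4 replicate 3 lay within the controls. The sums rest on 18 to 191 counts a library for the light strand and 27 to 126 for the heavy strand, and their counting error is accordingly large.

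**Figure D5:**
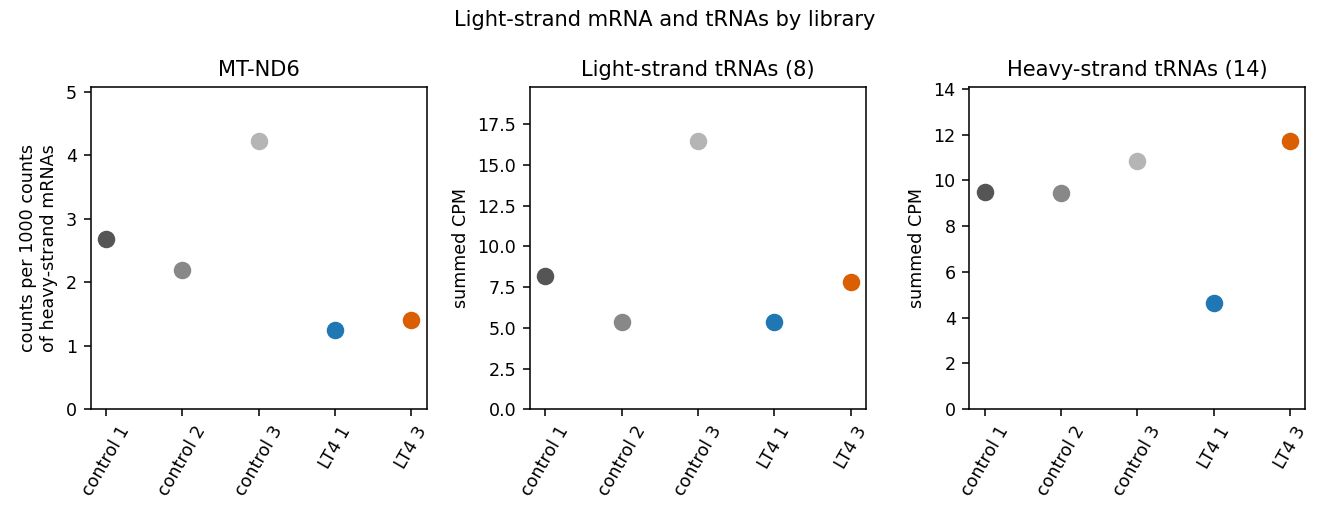
MT-ND6 per 1000 counts of heavy-strand mRNAs (left), and summed CPM of the 8 light-strand tRNAs (middle) and of the 14 heavy-strand tRNAs (right), in each library; all axes start at 0. MT-ND6 is lower in both LT4 libraries (1.24 and 1.41) than in any control (2.19 to 4.23), while each tRNA sum overlaps between groups.

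Nuclear chromosomes hold copies of mitochondrial sequence, and reads of a near-identical copy can be counted at either place. The table had 404 rows named as copies of a mitochondrial mRNA, of which 22 had a count and 3 had at least 100. MTATP6P1 (chr1:633696-634376), 98.5% identical to MT-ATP6 over 681 bases, had 5247, 3873 and 4730 counts in controls, 4317 in LT4 replicate 1 and 733 in LT4 replicate 3. That was 12.4%, 11.3% and 13.4% of the counts of MT-ATP6 in controls, 12.7% and 12.0% with LT4, and so nearly constant over the libraries. MTND2P28 reached at most 2.49% of the counts of MT-ND2 and MTCO1P12 at most 0.422% of those of MT-CO1.

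A list held nuclear genes of mitochondrial transcription, RNA cleavage and modification, RNA stability and decay, and mitochondrial genome replication, with nuclear regulators such as NRF1. Of its 48 genes, 46 were tested. None passed with both LT4 libraries or with either by edgeR, and DESeq2 and limma voom called 0. By edgeR 4 genes (2 higher, 2 lower) had an unadjusted p under 0.05, beside 13.9% of all genes. Over the list the median log2 value was -0.011, with 22 positive and 24 negative values, and 4 genes lay above and 4 below every control in both LT4 libraries, beside 17.3% above and 16.5% below over all genes.

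Among the stability factors, PDE12, which trims A tails in mitochondria, was at 20.7, 17.5 and 19.6 CPM in controls and 26.8 and 31.7 CPM with LT4 (log2 fold change 0.58, SE 0.17, edgeR adjusted p = 0.169). LRPPRC, which binds and stabilizes heavy-strand mRNAs, was at 72.2, 61.4 and 64.6 CPM, then 87.9 and 96.4 CPM (0.47, SE 0.14, edgeR adjusted p = 0.175). In both genes the LT4 libraries lay above every control. SLIRP, the partner of LRPPRC, had 0.32 (edgeR adjusted p = 0.585), the mitochondrial poly(A) polymerase MTPAP 0.13 (edgeR adjusted p = 0.82) and the ribonuclease PNPT1, which degrades mitochondrial RNA, -0.15 (edgeR adjusted p = 0.856).

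Of the processing enzymes, HSD17B10, a subunit of the RNase P that cuts tRNA 5′ ends, was at 226, 244 and 245 CPM in controls and 178 and 194 CPM with LT4 (-0.36, SE 0.13, edgeR adjusted p = 0.26). TRIT1, a tRNA-modifying enzyme, had -0.45 (SE 0.18, edgeR adjusted p = 0.283) and MRM3, which methylates the 16S rRNA, -0.31 (SE 0.15, edgeR adjusted p = 0.371). Of the transcription proteins, TFAM, which packages the genome and starts transcription at its promoters, had 0.48 (SE 0.25, edgeR adjusted p = 0.403), with both LT4 libraries above every control. The mitochondrial RNA polymerase POLRMT had -0.13 (SE 0.16, edgeR adjusted p = 0.74). Its level was 242, 259 and 227 CPM in controls, and 255 and 185 CPM in LT4 replicates 1 and 3. LT4 replicate 1 thus lay within the controls and LT4 replicate 3 below every control.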

How the data were processed

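The authors deposited 1 table with raw read counts for each gene and library, per the file headers. TPM values, which the authors deposited beside them, set the order of the mRNAs. Log2 fold changes and p-values of each LT4 library against controls were also deposited by the authors, by a test that headers and labels do not name. Of these, only log2 fold changes are quoted, as the authors' values. The build was GRCh38 and the tools named are featureCounts, Subread 2.0.1, SAMtools 1.9, HISAT2 2.1.0 and fastp 0.20.0, per the submitters' processing notes; per the labels' protocols, libraries were stranded and poly(A)-selected. How multi-mapped reads were treated, and with which annotation, is not given in the sources used here. Left unused were 2 per-sample columns and 3 columns of comparisons, which belong to no sample analysed here.

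Symbols came from a reference name table (60295 of 60623 gene IDs matched), and positions and sequences from GENCODE 29. Tests used R 4.3.3 with edgeR 4.0.16 on counts of all genes and 5 libraries, with its expression filter, TMM scaling, robust quasi-likelihood dispersion and Benjamini-Hochberg adjustment over 13833 genes (threshold 0.05). Libraries varied around their groups with a biological coefficient of variation of 14.6%. The SE of a log2 fold change is its size over the square root of F. Shares of counts were compared with an exact permutation test, two-sided, over 10 splits in scipy 1.17.1. Wilson 95% intervals of the shares, which cover counting error only, were at most 0.0388 percentage points either side for the mitochondrial share and 0.203 for the rRNA share. Every pair of libraries differed by more than counting noise. DESeq2 1.42.0 and limma 3.58.1 (voom) were alternatives, as were other scalings and filters, a replicate block, equal depth and leaving out each library. Scripts were tested on simulated counts, and figures drawn with matplotlib 3.10.9.

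All mRNAs and rRNAs are named, tRNAs with at least 100 counts summed, and of the nuclear list the 6 smallest p plus TFAM, POLRMT, LRPPRC, SLIRP, MTPAP and PNPT1. The members and lists were chosen with earlier results of these data known.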

Additional observations from a re-analysis of the deposited data

How the results depend on the processing

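With both LT4 libraries against controls, the number of members called was 0 by edgeR as reported, 3 by DESeq2 and 3 without a count filter. Leaving out each library in turn gave 0 to 6 (4 without LT4 replicate 1, where 4.12% of all genes passed, 6 without LT4 replicate 3, where 3.7% passed, and 0 without any control), where a lone LT4 library is assumed to vary like the controls. The replicate numbers 1 and 3 are shared by the groups, and no label says that they mark a shared culture or day; with them as a replicate block 4 members passed (MT-ND1, MT-ND2, MT-ND6 and MT-CYB, all lower), beside 3.09% of all genes. Over genes, the deviations of LT4 replicate 1 from its group mean correlated at 0.207, 0.0143 and -0.212 with those of controls 1, 2 and 3. With 2 LT4 libraries, the values of LT4 replicate 3 are the same with the opposite sign. They are therefore no separate sign of pairing. For LT4 replicate 1 the count was 3 at an adjusted p under 0.01 and 3 to 8 without each control; for LT4 replicate 3 it was 4 to 7, and between the LT4 libraries 3 to 4. For these counts, at an adjusted p under 0.01 or without a control, the share of all genes called was not taken. Whether they exceed the general level of calls in the same fits was therefore not tested. The nuclear list had 0 calls in each setting run.

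MT-ND1 and MT-ND2 were negative in all 15 settings and past the threshold in 5, and MT-ND6 in 3. Relative to the mitochondrial total, MT-CO2 had -0.0087 and MT-ND4 -0.0136, and the highest adjusted p of MT-ND1 and MT-ND2 was 0.995. Leaving out each library turned the direction of MT-RNR1 (-1.40 to 2.48), MT-RNR2 (-0.76 to 1.14), MT-CO1 (-0.26 to 0.12), MT-ATP8 (-0.16 to 0.49), MT-ATP6 (-0.24 to 0.095), MT-ND3 (-0.27 to 0.12), MT-ND4L (-0.26 to 0.63), MT-ND4 (-0.12 to 0.26), MT-ND5 (-0.46 to 0.081), MT-TI (-1.24 to 0.77) and MT-TQ (-1.18 to 0.11). MT-TP (-1.58 to -0.041) and MT-TT (-0.90 to -0.27) moved without turning.

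Differences in shares, LT4 minus control in percentage points, ranged over the same omissions from -0.623 to 3.57 for the mitochondrial share, -30.5 to 11.0 for mRNA, -11.0 to 30.5 for rRNA, -9.95 to 2.01 for complex I, -2.08 to 0.0452 for complex III, -16.2 to 7.71 for complex IV and -2.26 to 1.24 for complex V, each turning without LT4 replicate 3. With tRNA and rRNA rows left out they were -0.143 for the mitochondrial share, 2.22 for complex IV and 0.157 for complex V. The depth of LT4 replicate 3 limits the tRNAs most.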
